A study of Mus musculus with 6 samples.

Results

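The extracellular matrix genes described here are the collagens, laminins, fibronectin, nidogens, perlecan, agrin and the integrin receptors of the mouse. They were chosen by symbol among protein-coding genes of GENCODE M21. The rule takes Col or Itga or Itgb, or Lama, Lamb or Lamc, followed by a digit, with an a in the collagen symbols, together with Fn1, Nid1, Nid2, Hspg2 and Agrn. It found 85 of the 48526 genes in the table, 21683 of which are protein-coding. Of the 85, Col4a3bp (a ceramide transfer protein), Itgb1bp1, Itgb1bp2 and Itgb3bp match by symbol and encode neither matrix proteins nor integrins. They are given once below, which leaves 81 genes.

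RNA was sequenced from neural progenitor cells derived in adherent culture from mouse embryonic stem cells (mESCs), with 3 libraries of a flox/flox line and 3 of a -/- line. In the flox/flox line, the control, recombinase sites flank part of Dmrta2, a transcription factor gene of the dorsal telencephalon. Both groups received LDN193189 (100 nM, a BMP receptor inhibitor) and SB431542 (10 µM, which blocks the activin and TGF-beta receptors) until day 4, and XAV939 (1 µM, a Wnt pathway inhibitor) until day 6. Cyclopamine (1 µM, a Hedgehog pathway inhibitor) is stated for days 2 to 10, a span that runs past the day of RNA collection. On day 5 cells of both groups were moved onto a surface coated with poly-D-lysine and laminin, and RNA was taken on day 8. The labels name 1 line per genotype, so line and genotype cannot be told apart, and the spread behind each p-value is that among samples of 1 line.

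Fibrillar collagens assemble into the fibres of interstitial tissue. Basement membranes are thin sheets in which a laminin network, built of alpha, beta and gamma chains, is joined through nidogens and perlecan to a network of collagen IV. In the developing brain such a sheet lies under the pia, where the end-feet of radial glia attach to it. Integrins are receptors of an alpha and a beta chain that bind matrix proteins outside the cell and the actin cytoskeleton inside. Fibronectin is bound by integrins through its Arg-Gly-Asp (RGD) motif.

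Total counts ran from 24565560 to 39646793 per library, so a level of 1 CPM (read counts scaled by library size with TMM factors) stands for at least 25.1 reads. Where 3 values stand together, they are libraries A, B and C of a line, the control (flox/flox) line first. Dmrta2 was at 85.2, 75.1 and 79.2 CPM in the control line, then 409, 414 and 439 CPM in the -/- line. The count covers the whole gene, and the deleted part is not named in the labels, so it checks nothing about the deletion. Directions given below follow the labels, with -/- set against flox/flox. The progenitor markers Nes and Sox2 were at 813 ± 77.9 and 235 ± 3.79 CPM in control libraries and 676 ± 46.3 and 181 ± 4.13 CPM in the others (SD, n = 3). Tested chromosome 11 genes had a median log2 change of 0.49, against -0.02 for all others. The 6 members on that chromosome (Col1a1, Col23a1, Itga2b, Itga3, Itgb3 and Itgb4) are marked as such.

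In the libraries labelled -/-, most fibrillar collagens, fibronectin, perlecan and the main beta-1 integrin chains were lower, while the most abundant collagen IV chains and laminin alpha-1 did not pass the test. Of the 81 genes, 30 fell and 4 rose at an adjusted p under 0.05 (edgeR's quasi-likelihood test), 32 were tested and did not pass, and 15 had too few reads to be tested. Over all 20549 genes tested, 17.4% fell and 17.9% rose, 35.3% in all. Among the 14743 protein-coding genes tested the shares were 20% and 20.5%. The median log2 change of the 66 tested members was -0.67, against -0.003 for all genes tested. In all 34 called members the CPM of the 3 libraries of one group lay entirely above those of the other, which the call itself makes likely. Of the 66 tested members, called or not, 32 separated with the libraries labelled -/- lower and 7 with them higher. Over all tested genes, called or not, the shares were 25.4% lower and 25.5% higher. Col4a4, Col6a6 and Col8a2 passed the low-count filter through libraries of 1 group alone, and their calls follow in part from that.

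**Figure D1:**
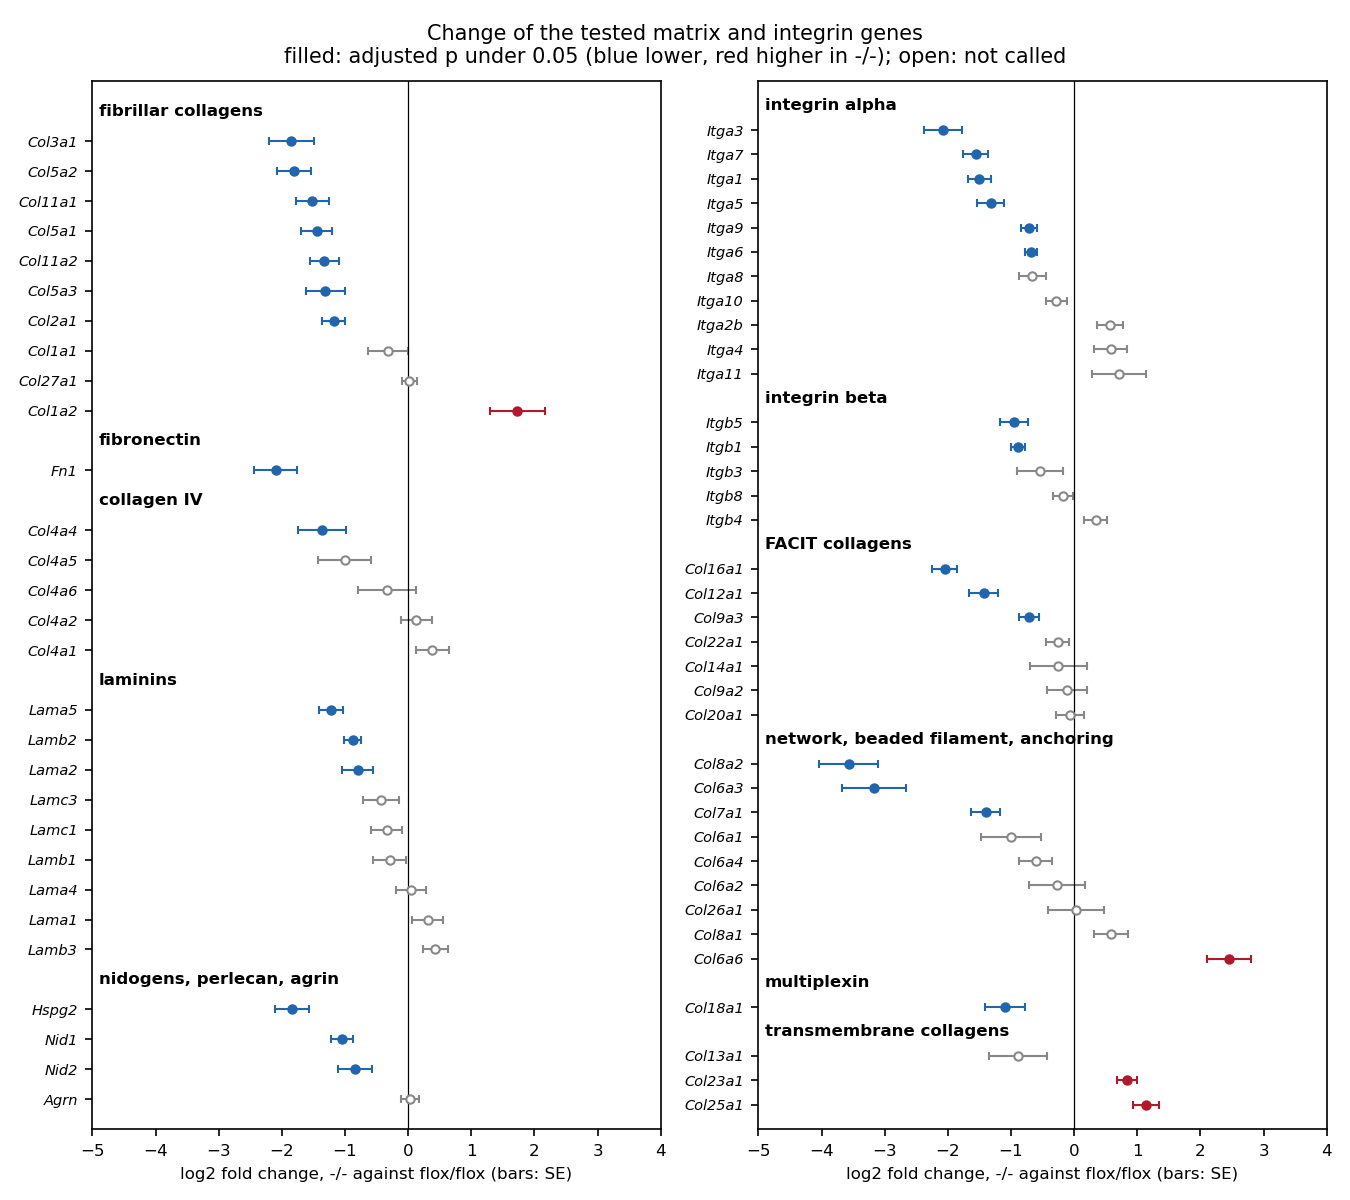
Log2 fold change of tested genes (x axis, -/- against flox/flox, bars are SE) by class (y axis); filled points passed at an adjusted p under 0.05. Blue points, lower in the libraries labelled -/-, are 30 genes from Itga6 (-0.68) to Col8a2 (-3.57), and the 4 red points are Col1a2, Col6a6, Col23a1 and Col25a1.

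The libraries of a group also differed among themselves. Flox/flox A held the highest flox/flox level for 44 of the 66 tested members (66.7%), against 37.8% of all tested genes. Flox/flox C held the lowest flox/flox level for 40 (60.6%, against 36.4% of all tested genes). The library -/- C held the lowest level of its group for 41 (62.1%, against 41.1%). Summed over the 81 genes, the level was 7436, 5612 and 4315 CPM in the control line, then 3590, 3558 and 2650 CPM in the -/- line. The sums of the groups do not overlap, though flox/flox C is nearer to -/- A than to flox/flox A.

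**Figure D2:**
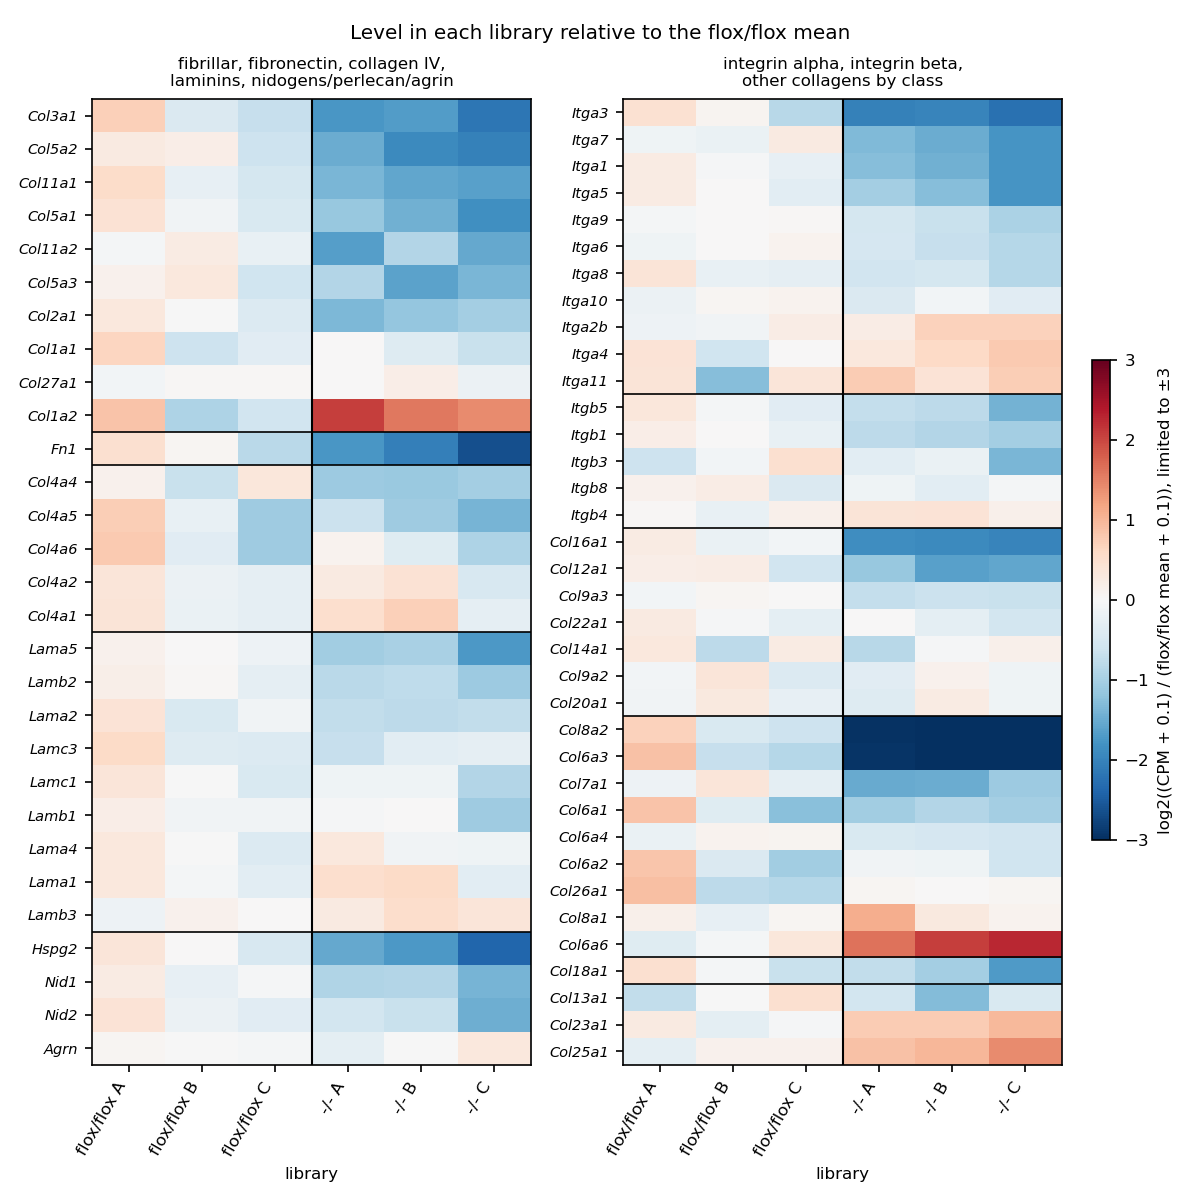
Colour gives the log2 ratio of the CPM in each library to the flox/flox mean, with 0.1 CPM added to both and limited to ±3, for tested genes in rows and the 6 libraries in columns. Flox/flox A is redder than flox/flox B and C in most matrix genes, and the libraries labelled -/- are blue throughout for the genes that fell.

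Upstream sequences are shown for 5 members whose calls differ in class and direction, to let the start regions of genes that moved together be compared. They come from RefSeq's GRCm38.p6 promoter table, which holds 59 of the 81 genes, and end before the first annotated exonic base. Capitals mark matches on either strand to TATAAA (the TATA box), CCAAT (the CCAAT box), GGGCGG (the GC box) and CAGACA (the core of the Smad-binding CAGA box). Col3a1 (chr1:45311338-45311537, plus strand), Col11a1 (chr3:114030340-114030539, plus), Hspg2 (chr4:137468603-137468768, plus) and Lama5 (chr2:180225860-180226059, minus) fell. Col23a1 (chr11:51289720-51289919, plus) rose.
Col3a1: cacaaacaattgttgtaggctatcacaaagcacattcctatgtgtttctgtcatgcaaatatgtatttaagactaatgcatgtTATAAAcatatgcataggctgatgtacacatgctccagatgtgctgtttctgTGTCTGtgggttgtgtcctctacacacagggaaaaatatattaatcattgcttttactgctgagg
Col11a1: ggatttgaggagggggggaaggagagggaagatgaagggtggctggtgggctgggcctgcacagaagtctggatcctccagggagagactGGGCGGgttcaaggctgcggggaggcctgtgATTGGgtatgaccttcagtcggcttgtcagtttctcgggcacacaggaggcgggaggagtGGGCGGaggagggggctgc
Hspg2: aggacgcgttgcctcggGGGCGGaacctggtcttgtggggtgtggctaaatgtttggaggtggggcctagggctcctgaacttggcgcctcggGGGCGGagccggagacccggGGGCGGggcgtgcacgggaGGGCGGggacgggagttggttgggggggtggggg
Lama5: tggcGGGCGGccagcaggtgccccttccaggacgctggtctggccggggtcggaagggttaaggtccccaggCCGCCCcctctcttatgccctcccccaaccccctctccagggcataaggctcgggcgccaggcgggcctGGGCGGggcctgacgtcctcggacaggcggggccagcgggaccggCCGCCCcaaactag
Col23a1: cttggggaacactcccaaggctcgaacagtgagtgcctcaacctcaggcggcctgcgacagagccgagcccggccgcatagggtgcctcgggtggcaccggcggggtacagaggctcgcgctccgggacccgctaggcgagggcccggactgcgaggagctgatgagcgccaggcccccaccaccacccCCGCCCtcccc

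The windows differ in their matches. That of Col3a1 holds 0 GC boxes and 1 TATA box, which begins 117 bases before the RefSeq start. Those of Hspg2 and Lama5 hold 4 GC boxes each and 0 TATA boxes. In the 250 bases before the start, a GC box was found in 31 of the 59 genes (52.5%), against 32.7% of 32817 such windows of all genes. A CAGA core was found in 17 (28.8%, against 17.1%), a CCAAT box also in 17 (28.8%, against 33.8%) and a TATA box in 5 (8.47%, against 12.4%). By call, the GC box was in 15 of 22 genes that fell, 4 of 4 that rose and 11 of 21 that did not pass. For the CAGA core the counts were 7, 1 and 6. These are matches of letters and no test was made of them. The 59 genes have 66 windows, and a gene counts if any of its windows matches. The shares of all genes are per window, so they are not a like measure.

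Among the 11 fibrillar collagen genes, 7 fell (Col2a1, Col3a1, Col5a1, Col5a2, Col5a3, Col11a1 and Col11a2), 1 rose (Col1a2), 2 did not pass (Col1a1 and Col27a1) and Col24a1 was not tested. Col3a1, the chain of collagen III that is found with collagen I in elastic tissues, had the highest level per exonic length of the class, at 33.4 ± 18.6 RPKM (CPM per kilobase of exonic sequence) in the control libraries (SD, n = 3). Col3a1 (chromosome 1, 45311538 to 45349706) was at 537, 244 and 203 CPM in the control line, then 97.2, 103 and 73.1 CPM in the -/- line. Flox/flox A was more than 2 times the other control libraries, and the lowest of these was still above every library labelled -/-. The log2 change was -1.85 ± 0.36 (SE), 3.60-fold lower (adjusted p = 0.00682, edgeR), and 2.45-fold without flox/flox A. Its neighbour Col5a2, 24614 bases away and pointing towards it, was at 15.1, 14.2 and 8.01 CPM and then 4.40, 3.26 and 2.99 CPM. The log2 change of Col5a2 was -1.80 ± 0.27, close in size to that of Col3a1.

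The chains of collagens V and XI, which nucleate fibres of the major collagens, all fell. Col5a1 was at 237, 165 and 128 CPM in the control line, then 80.6, 64.8 and 49.1 CPM in the -/- line, a log2 change of -1.45 ± 0.25 (adjusted p = 0.00436, edgeR). Col11a1 was at 111, 64.1 and 53.2 CPM against 29.2, 25.7 and 24.4 CPM. Libraries labelled -/- were close together for Col11a1, and the spread lay in the control group. Col11a2 was at 12.3, 15.2 and 11.1 CPM against 4.04, 6.95 and 4.40 CPM, and Col5a3 went from 2.79 CPM on average (log2 change -1.31 ± 0.31). The call for Col5a3 was lost without flox/flox B (adjusted p = 0.0600, edgeR) and without -/- B (0.0588). Col2a1, the collagen of cartilage that neuroepithelium also makes early in development, was at 102, 81.0 and 61.1 CPM against 32.1, 36.4 and 39.8 CPM. It fell by 1.18 ± 0.18 on the log2 scale (adjusted p = 0.00262, edgeR).

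The chains of collagen I parted. Col1a1 and Col1a2 encode the chains of the same molecule, in which the Col1a1 chain is the more numerous. Col1a2 (chromosome 6, 4504814 to 4541544) was at 16, 4.56 and 5.86 CPM in the control line, then 37.6, 26.7 and 23.8 CPM in the -/- line. It was the only fibrillar gene that rose, by 1.73 ± 0.44 (log2, SE) or 3.31-fold (adjusted p = 0.0196, edgeR). The rise was 5.65-fold without flox/flox A, and the call was lost without flox/flox B (adjusted p = 0.0566) and without -/- A (0.0576). Col1a1, on chromosome 11, was at 71.8, 29.9 and 36.6 CPM against 46.1, 35.3 and 29.2 CPM, so that the groups overlapped. Its log2 difference of -0.32 ± 0.32 did not pass (adjusted p = 0.480, edgeR), was 0.15 without flox/flox A and was -0.84 with the chromosome 11 shift taken out (adjusted p = 0.0870). The ratio of Col1a1 to Col1a2 in RPKM was 8.5, 12.4 and 11.8 in the control line, then 2.32, 2.5 and 2.33 in the -/- line. The ratios do not overlap, although the levels of Col1a1 do.

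Genes downstream of Col1a2 on chromosome 6, chosen after their values were seen, are Casd1 and the imprinted genes Sgce and Peg10. Casd1, the nearest, was at 47.8 and 44.8 CPM on average and did not pass (adjusted p = 0.638, edgeR). Sgce rose from 31.4 ± 3.86 to 61.0 ± 2.95 CPM (SD, n = 3). Peg10 had means of 995 and 1216 CPM and did not pass (adjusted p = 0.216). The other fibrillar gene that did not pass, Col27a1, had the smallest difference of the class, 0.02 ± 0.12 on the log2 scale, at 10.6 and 10.7 CPM.

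Fibronectin had the largest number of reads of any member, 118117 over the 6 libraries. Fn1 (chromosome 1, 71585520 to 71653200, minus strand) was at 1525, 1143 and 622 CPM in the control line, then 328, 264 and 177 CPM in the -/- line. The lowest control library was above the highest library labelled -/-, and the controls themselves spread more than 2 times. The log2 change was -2.10 ± 0.34 (SE), or 4.28-fold lower (adjusted p = 0.00351, edgeR). Leaving out flox/flox A gave 3.44-fold.

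**Figure D3:**
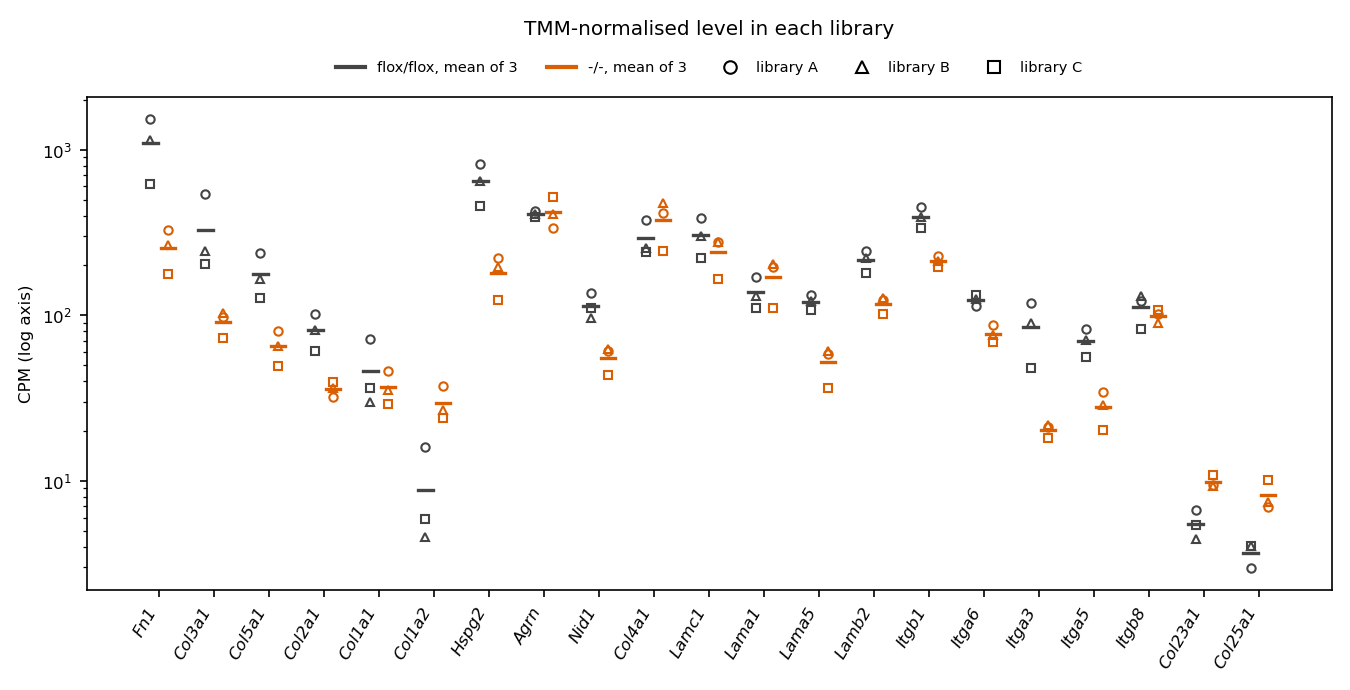
CPM on a log axis for 21 members in each library; circles, triangles and squares are libraries A, B and C, grey for flox/flox and orange for -/-, and lines are means of 3. For Fn1, Hspg2, Col3a1 and Itgb1 the orange points all lie below the grey, for Col1a2, Col23a1 and Col25a1 they all lie above, and for Agrn, Col4a1, Lama1 and Itgb8 they overlap.

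Of 21 basement membrane genes, 7 fell, 0 rose, 12 did not pass and 2 were not tested (Col4a3 and Lama3). The number that fell was 4 without flox/flox A, without -/- B or without -/- C, and without -/- C, 2 rose (Col4a1 and Lama1). Taking the library letter as a block gave 9 that fell. The 7 were Hspg2, Nid1, Nid2, the laminin chains Lama2, Lama5 and Lamb2, and Col4a4, a collagen IV chain near the limit of detection. The abundant collagen IV chains Col4a1 and Col4a2 did not pass in the fit of all libraries.

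Perlecan, the heparan sulfate proteoglycan that ties laminin and collagen IV together and binds growth factors, fell most in this class. Hspg2 (chromosome 4, 137468769 to 137570630) was at 826, 648 and 458 CPM in the control line, then 221, 195 and 123 CPM in the -/- line. The log2 change was -1.84 ± 0.27 (SE), 3.58-fold lower (adjusted p = 0.00220, edgeR). Nid1, a nidogen that bridges the laminin gamma-1 chain to collagen IV, was at 136, 96.6 and 111 CPM and then 60.8, 62.3 and 43.3 CPM, a fall of 2.06-fold. Nid2, the other nidogen, was at 75.2, 50.1 and 45.2 CPM and then 38.8, 35.6 and 20.5 CPM (log2 change -0.84 ± 0.27, adjusted p = 0.0442, edgeR). The call for Nid2 was lost without flox/flox A, flox/flox B, -/- B or -/- C, with adjusted p from 0.0720 to 0.125, and 8.45% of its exonic bases lie under an exon on the other strand. Agrin, a proteoglycan that neurons also make and that organizes synapses, was at 428, 409 and 395 CPM and at 336, 408 and 515 CPM. Agrn did not pass (0.03 ± 0.14, adjusted p = 0.887, edgeR), and its level ran in the opposite order to Hspg2 among the libraries labelled -/-.

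The laminin chains differed in whether they passed the test. Lama5, the alpha chain of the laminins that are common in adult epithelia and vessels, was at 133, 122 and 108 CPM in the control line, then 58.2, 61.2 and 36.6 CPM in the -/- line. It fell by 1.22 ± 0.19 on the log2 scale (adjusted p = 0.00262, edgeR). Lamb2, a beta chain that can pair with it, was at 246, 223 and 181 CPM against 123, 127 and 102 CPM, a log2 change of -0.88 ± 0.13 (adjusted p = 0.00211, edgeR). Lama1, the alpha chain of early embryonic basement membranes, was at 171, 131 and 110 CPM against 196, 204 and 111 CPM. Its log2 difference of 0.31 ± 0.25 did not pass (adjusted p = 0.363, edgeR) and was 0.55 without -/- C (0.0455), the library with the lowest level of its group. Per length, Lama5 stood at 0.660, 0.791 and 0.840 of Lama1 in the flox/flox libraries and at 0.252, 0.255 and 0.280 in the others. Both groups were narrow for this ratio and did not overlap.

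Lamc1, the gamma chain shared by most laminins and the laminin gene with the highest level per length, was at 389, 302 and 223 CPM against 279, 278 and 165 CPM. It did not pass (-0.34 ± 0.25, adjusted p = 0.331, edgeR) except with the library letter as a block (0.0118). Lamb1, its usual partner, went from 115 to 93.6 CPM (log2 difference -0.29 ± 0.26) and did not pass. The ratio of Lamc1 to Lamb1 overlapped between the groups, with means of 3.16 ± 0.549 and 3.18 ± 0.411 (SD, n = 3). That of Lamb2 to Lamb1 overlapped too, at 3.04, 3.42 and 2.79 in the control line, then 1.8, 1.8 and 3.07 in the -/- line. Of the laminin genes with low counts, Lama2, the alpha chain of muscle and nerve, fell from 2.48 to 1.43 CPM (adjusted p = 0.0392, edgeR). That call was lost without flox/flox A, without flox/flox C or without any single library labelled -/-, with adjusted p from 0.0596 to 0.114. Lama4, Lamb3 and Lamc3 did not pass, at 0.831 to 5.20 CPM in control libraries and with log2 differences from -0.43 (Lamc3) to 0.43 (Lamb3).

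Collagen IV is encoded by 3 pairs of genes that lie head to head. Col4a1 and Col4a2 (chromosome 8), which make the widespread form, overlap by 22 bases at their starts. Col4a1 was at 379, 254 and 242 CPM in the control line, then 417, 476 and 243 CPM in the -/- line. Its log2 difference of 0.38 ± 0.26 did not pass (adjusted p = 0.309, edgeR), and without -/- C it was 0.62 and passed (0.0472). Col4a2 was at 287, 197 and 183 CPM against 268, 300 and 160 CPM (log2 difference 0.13 ± 0.25). Across libraries the pair kept nearly the same order. The RPKM ratio of Col4a1 to Col4a2 lay between 1.15 and 1.17 in the flox/flox libraries and between 1.34 and 1.41 in the others, so that the ratio separated the groups where neither level did.

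Col4a5 and Col4a6 (X chromosome), of which Col4a5 is mutated in Alport kidney disease, had wide control groups. Col4a5 was at 149, 75.7 and 42.3 CPM against 57.2, 42.4 and 33.8 CPM. The difference of -1.0 ± 0.42 did not pass (adjusted p = 0.105, edgeR) but did without flox/flox C (0.0161) and with the library letter as a block (0.00817). Without flox/flox A it shrank to -0.41 (adjusted p = 0.338, edgeR). Col4a6 went from 19.5 to 15.5 CPM and did not pass. The third pair, Col4a4 and Col4a3, with 71 bases between them, was near the limit of detection. Col4a4 fell from 0.605 ± 0.236 to 0.234 ± 0.0107 CPM (SD, n = 3) on 73 reads in all, a call lost when any library but flox/flox B was left out (adjusted p 0.0572 to 0.0850) and in DESeq2 (0.0577). Col4a3 had 42 reads.

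**Figure D4:**
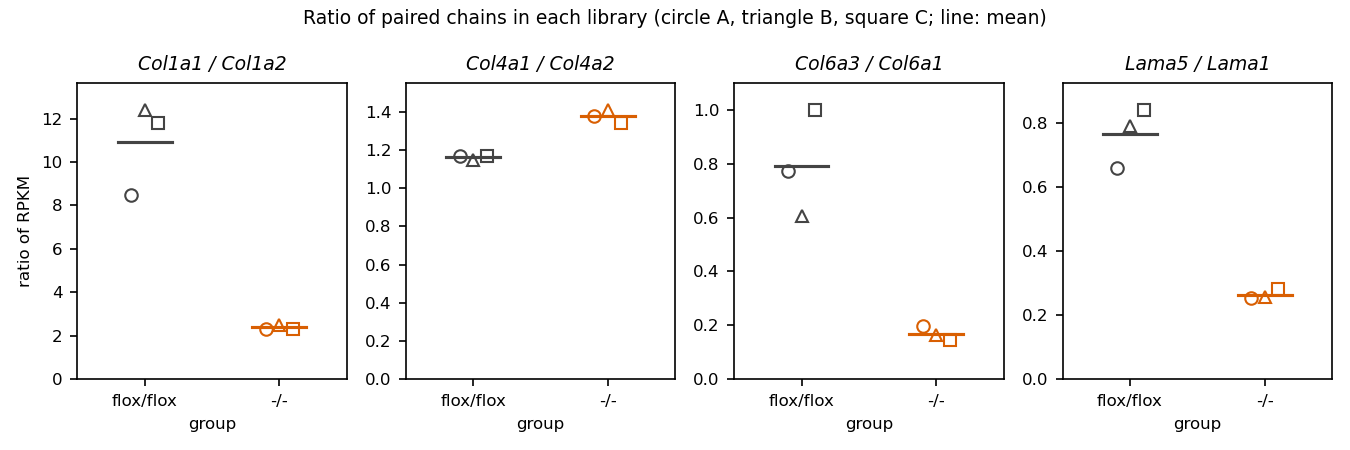
Ratio of RPKM (y axes from 0) of Col1a1 to Col1a2, Col4a1 to Col4a2, Col6a3 to Col6a1 and Lama5 to Lama1 in each library, by group; lines are means of 3. The flox/flox and -/- ratios do not overlap in these 4 pairs, with means of 10.9 and 2.38 for Col1a1 to Col1a2 and of 1.16 and 1.38 for Col4a1 to Col4a2.

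In all, 13 such ratios were computed, chosen after the levels were seen. For 9 of them the groups did not overlap, with an exact two-sided permutation p of 0.10, the smallest that 3 libraries against 3 allow. These ratios are a description.

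Among the 21 integrin genes, 8 fell, 0 rose, 8 did not pass and 5 were not tested. Itgb1, the beta chain that pairs with most alpha chains and the integrin gene with the highest level per length (96.3 ± 13.4 RPKM in the flox/flox libraries, SD, n = 3), was at 448, 393 and 338 CPM in the control line, then 229, 212 and 195 CPM in the -/- line. Itgb1 (chromosome 8, 128685654 to 128733200) fell by 0.89 ± 0.11 on the log2 scale, or 1.86-fold (adjusted p = 0.00116, edgeR). The control libraries ranged from 338 to 448 CPM, all above the highest library labelled -/-, at 229 CPM.

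All 3 alpha chains that pair with beta-1 to bind laminin fell. Itga6 was at 113, 125 and 133 CPM against 87.4, 76.0 and 68.6 CPM, a log2 change of -0.68 ± 0.10. Itga3, which prefers laminins with the alpha-5 chain, was at 118, 90.2 and 47.9 CPM against 21, 21.6 and 18.1 CPM. The fall of Itga3, 4.22-fold (adjusted p = 0.00206, edgeR), was the largest among the integrins, and it lies on chromosome 11, where the median gene rose. With that shift taken out its log2 change went from -2.08 to -2.59. Itga7, the laminin receptor chain of muscle, went from 4.80 to 1.61 CPM. The ratio of Itga3 to Itgb1 in RPKM was 0.151 ± 0.0451 and 0.0682 ± 0.00419 (SD, n = 3), while that of Itga6 to Itgb1 overlapped at 0.145 ± 0.0316 and 0.165 ± 0.00698.

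Itga5, the alpha chain of the main fibronectin receptor, was at 82.5, 70.7 and 55.9 CPM against 34.4, 28.9 and 20.3 CPM. It fell by 1.32 ± 0.21 on the log2 scale (adjusted p = 0.00295, edgeR), as its ligand gene Fn1 also fell. Of the other chains that bind RGD, Itga8 did not pass (-0.66 ± 0.22, adjusted p = 0.0517, edgeR). It did with the library letter as a block (0.0251), in DESeq2 (0.0402), with upper-quartile scaling (0.0499), with the 1 CPM filter (0.0494) and without flox/flox C (0.0408). Itga2b, the platelet chain on chromosome 11, had means of 1.76 and 2.63 CPM and did not pass (adjusted p = 0.0668), but did with the block (0.0379) and without -/- A (0.0330). Itga1, a collagen receptor chain, was at 11.6, 9.50 and 8.29 CPM against 3.96, 3.57 and 2.78 CPM, and its log2 change of -1.50 ± 0.18 had an adjusted p of 0.00112 (edgeR). Its neighbour Itga2, 20995 bases away, had 37 reads and was not tested. Itga10 and Itga11, the other collagen receptor chains, did not pass, and 33.5% of the exonic bases of Itga10 overlap another gene.

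Itga9, a receptor chain for tenascin and other ligands, was at 13.5, 14.2 and 14.3 CPM against 9.71, 8.76 and 7.18 CPM, a fall of 1.63-fold. Its relative Itga4 went from 3.50 to 5.25 CPM and did not pass (0.58 ± 0.26, adjusted p = 0.123, edgeR), except without flox/flox A (0.85, adjusted p = 0.0431). Among the beta chains that pair with alpha-v, Itgb5 was at 50.2, 37.9 and 31.2 CPM against 24.0, 22.9 and 14.8 CPM (log2 change -0.95 ± 0.22, adjusted p = 0.0147, edgeR). Itgb8, which activates latent TGF-beta in the developing brain, was at 122, 130 and 82.5 CPM against 102, 89.3 and 107 CPM. Its groups overlapped and it did not pass (-0.17 ± 0.16), except without flox/flox C (-0.34, adjusted p = 0.0285, edgeR). Itgb3 (10.2 and 6.94 CPM) and Itgb4 (1.57 and 1.98 CPM), both on chromosome 11, did not pass either. The beta chains of blood cells, Itgb2, Itgb2l and Itgb7, had 56, 1 and 38 reads in all.

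Of the 27 other collagens, 20 were tested, of which 7 fell (35%), 3 rose (15%) and 10 did not pass, and 7 were not tested. Among all protein-coding genes tested, 20% fell and 20.5% rose, so the share that rose was not above that of other genes. Collagen VI, a beaded filament of chains alpha-1, alpha-2 and alpha-3 or a substitute, showed the largest internal difference. Col6a3 (chromosome 1, 90765923 to 90843971) was at 36.0, 12.0 and 10.7 CPM in the control line, then 2.47, 2.24 and 1.79 CPM in the -/- line. It fell 8.99-fold (adjusted p = 0.00303, edgeR), and 5.20-fold without flox/flox A. Col6a1 was at 17.1, 7.26 and 3.90 CPM against 4.55, 5.05 and 4.57 CPM. Its difference of -1.0 on the log2 scale missed the threshold (adjusted p = 0.137, edgeR). It passed without flox/flox C (0.0184), and without flox/flox A the difference was -0.24 (0.525). Col6a2 went from 4.12 to 3.43 CPM and did not pass. Col6a6, another chain that can take the place of alpha-3, rose from 0.135, 0.190 and 0.279 CPM to 0.839, 1.16 and 1.34 CPM on 128 reads in all. Its neighbour Col6a5 had 31 reads, and Col6a4 did not pass.

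The collagens that associate with fibrils, without forming them alone (FACIT), included 3 that fell. Col12a1, which sits on collagen I fibres, was at 92.7, 94.4 and 54.1 CPM against 36.3, 26.1 and 27.4 CPM (log2 change -1.43 ± 0.23, adjusted p = 0.00304, edgeR). Col16a1 fell 4.13-fold from 2.92 CPM and Col9a3 1.63-fold from 2.00 CPM, the latter not called without flox/flox B (adjusted p = 0.0514, edgeR). Col22a1 was at 20.4, 16.3 and 13.8 CPM against 16.9, 13.8 and 11.5 CPM, with overlapping groups, and passed only with the library letter as a block (0.0371). Col20a1 was at 3.34, 4.41 and 3.03 CPM against 2.72, 4.25 and 3.27 CPM. Neither Col9a2 nor Col14a1 passed, at levels under 1 CPM.

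Col18a1, a collagen of basement membranes whose end is released as endostatin, was at 187, 129 and 83.9 CPM against 79.8, 66.2 and 40.9 CPM. It fell 2.13-fold (adjusted p = 0.0340, edgeR), a call lost without flox/flox A, flox/flox B, -/- B or -/- C (adjusted p 0.0764 to 0.0937). The network collagen Col8a2 fell 11.8-fold from 2.88 CPM, while Col8a1, its usual partner chain, went from 3.96 to 5.90 CPM and did not pass. The anchoring fibril collagen Col7a1 fell 2.65-fold from 4.45 CPM. Col26a1 was at 10.5, 3.19 and 3.03 CPM against 5.82, 5.59 and 5.77 CPM and did not pass, but rose 1.84-fold without flox/flox A (adjusted p = 0.00564, edgeR).

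Of the 4 transmembrane collagens, 2 rose. Col25a1, made by neurons and needed for motor axons to enter muscle, was at 2.97, 4.03 and 4.06 CPM in the control line, then 6.91, 7.48 and 10.1 CPM in the -/- line. It rose by 1.14 ± 0.20 on the log2 scale (adjusted p = 0.00407, edgeR). Col23a1, on chromosome 11, was at 6.66, 4.44 and 5.38 CPM against 9.43, 9.33 and 10.9 CPM. Its rise of 0.84 ± 0.16 became 0.33 with the chromosome 11 shift taken out and was then not called (adjusted p = 0.166, edgeR). Col13a1 was at 0.304, 0.570 and 0.837 CPM against 0.356, 0.170 and 0.387 CPM and did not pass, and Col17a1 had 21 reads. The 15 members without a test had between 1 and 56 reads over the 6 libraries and at most 0.777 CPM in any.

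Of the 4 genes matched by symbol alone, 1 fell. Col4a3bp was at 44.2, 42.0 and 43.3 CPM against 35.0, 33.3 and 37.3 CPM, and fell 1.23-fold (adjusted p = 0.0124, edgeR), a call lost without -/- B (0.0669). Itgb1bp1 was at 24.1, 21 and 22.7 CPM against 19.2, 22.3 and 21.9 CPM. Itgb3bp was at 16.3, 15.3 and 14.1 CPM against 13.6, 13.7 and 13.5 CPM. These and Itgb1bp2 did not pass.

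Genes that work with the members were listed by role. Enzymes and chaperones of collagen synthesis fell in 16 of 29 tested genes and rose in 2 (median log2 change -0.45, against -0.003 for all genes tested). Pcolce, which speeds the removal of the procollagen C-terminal end, fell 5.55-fold, Crtap, a part of the prolyl 3-hydroxylation complex, 2.58-fold and Loxl4, a crosslinking enzyme, 5.66-fold. P4hb and P4ha2, subunits of prolyl 4-hydroxylase and both on chromosome 11, rose 1.25-fold and 1.94-fold. Serpinh1 (added), the chaperone of procollagen, was at 967, 724 and 561 CPM against 369, 335 and 237 CPM.

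Other matrix receptors fell in 11 of 16 tested genes and rose in 2, with a median of -0.55. Bcam, a receptor for the laminin alpha-5 chain, fell 6.39-fold, from 65.9 ± 22.4 to 10.3 ± 2.77 CPM (SD, n = 3), and the glypican genes Gpc1 and Gpc6 fell 1.44-fold and 2.24-fold. Cd47 and Gpc2 rose 1.68-fold and 1.75-fold. Dag1 (added), the laminin and agrin receptor dystroglycan, fell from 383 ± 43.3 to 293 ± 25.0 CPM (SD, n = 3), and Itgav (added), which the symbol rule leaves out, from 73.8 ± 14.3 to 51.9 ± 5.98 CPM. Proteins of integrin adhesions fell in 18 of 25 tested genes and rose in 1 (median -0.65). Zyx fell 2.27-fold, Lims2 5.03-fold and Kank1 2.16-fold, and Tns1, which rose, changed 1.70-fold. The focal adhesion kinase gene Ptk2 (added) had a small fall, from 123 ± 3.41 to 109 ± 2.19 CPM (SD, n = 3).

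Of 35 tested genes of other matrix proteins, 11 fell and 4 rose (median -0.40). Tinagl1, a basement membrane protein, fell 6.33-fold, thrombospondin 1 (Thbs1) 4.53-fold from 1074 ± 335 CPM (SD, n = 3), and Fbln5, which passed the low-count filter through the control libraries alone, went from 3.44 to 0.108 CPM. Vitronectin (Vtn, on chromosome 11), the brain proteoglycan gene Ncan and Fbln2 rose 3.54-fold, 2.46-fold and 2.86-fold. Matrix proteases and their inhibitors fell in 11 of 26 and rose in 3 (median -0.34), with falls of 15.1-fold in Adamts15, 1.29-fold in Mmp15 and 2.12-fold in Mmp14. Mmp24, Adamts5 and Timp4 rose 1.85-fold, 1.9-fold and 2.17-fold. Timp4, at 0.218 and 0.486 CPM on average, passed the filter in the -/- line alone. Ligands, receptors and responsive genes of the TGF-beta pathway fell in 12 of 20 tested genes and rose in 0 (median -1.01). Tgfb2 was at 93.6, 83.7 and 34.7 CPM against 10.9, 8.02 and 6.58 CPM, and Ltbp4, which tethers latent TGF-beta to the matrix, fell 3.81-fold. Ccn1, a matricellular gene that the pathway and YAP induce, fell 5.40-fold.

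Markers of other cell types are given beside the members. The shares among protein-coding genes tested were 20% that fell and 20.5% that rose. No marker list was tested against those shares, and several hold few tested genes. Mesenchyme and meninges markers fell in 10 of 14 tested genes and rose in 0, with summed levels of 189 to 258 CPM in control libraries and 101 to 140 CPM in the others. Among the defining genes, Prrx1 was at 34.4, 17.0 and 21.7 CPM against 9.86, 8.68 and 7.92 CPM, Tcf21 was below 0.1 CPM in every library, and Pdgfra and Pdgfrb did not pass. Smooth muscle markers fell in 2 of 5 tested genes (132 to 323 CPM against 54.2 to 86.1 CPM), and the other 3 did not pass. Acta2 was at 156, 114 and 70.9 CPM against 50.9, 38.1 and 32.5 CPM. Tagln, the other that fell, was at 162, 126 and 57.1 CPM against 30, 22.7 and 17.9 CPM. These 2 genes made up most of the sum in every library. Surface epithelium markers fell in 7 of 8 (340 to 477 CPM against 107 to 195 CPM), with Krt5 below 0.1 CPM throughout.

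Endothelial markers fell in 1 of 4 (58.2 to 91.7 CPM against 9.25 to 21.5 CPM). The 1 was Kdr, at 53.4 ± 25.1 and 4.08 ± 1.87 CPM (SD, n = 3), while Tie1, Emcn and Erg were below 0.1 CPM. Cdh5 (17.7 and 8.95 CPM on average) and Pecam1 (1.56 and 1.46 CPM, on chromosome 11) did not pass, with overlapping groups. Primitive and parietal endoderm, which make much collagen IV and laminin, had markers that rose in 5 of 9 and fell in 0 (47.1 to 114 CPM against 49.2 to 93.5 CPM). Those with the smallest adjusted p were Hnf4a (0.0949 and 1.24 CPM on average, past the filter in the -/- line alone), Sox17 and Sox7. Sox17 was at 2.91, 1.1 and 1.35 CPM against 11.5, 15.3 and 6.58 CPM. Dab2, the most abundant of the list, was at 76.2, 39.9 and 21.8 CPM against 29.7, 36.1 and 18 CPM, with overlapping groups. Neural crest markers rose in 2 and fell in 3 of 8 (77.3 to 93.8 CPM against 87.3 to 156 CPM), and the 1 tested blood marker, Csf1r, fell (17.8 to 22.7 CPM against 13.2 to 16.2 CPM for the list).

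Neural progenitor markers rose in 7 and fell in 6 of 14 (4328 to 4981 CPM against 4155 to 4530 CPM), and neuron markers rose in 13 of 14 and fell in 0 (1896 to 2981 CPM against 3604 to 5958 CPM). The part of these cell types in the matrix results was not tested. In bulk RNA, fewer cells of a type and less RNA per cell cannot be told apart.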

How the data were processed

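RNA-seq of 3 flox/flox and 3 -/- samples was analysed from 1 table of raw counts deposited by the authors, with 1 row per Ensembl gene. The submitters' processing notes name BWA 0.5.9, featureCounts 1.4.6 and mm10 (GRCm38), and per the labels' protocols each library came from 1 µg RNA with a stranded mRNA kit. How strand and multiply mapped reads were handled is not given in the sources used here, so overlapping genes may share reads. For 10 of the 85 genes, 5% or more of the exonic sequence is also exonic in another gene.

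Columns carry a genotype and a letter and were assigned to groups. Genes kept by filterByExpr (counts of 10, totals of 15) were scaled by TMM and tested in R 4.3.3 with edgeR 4.0.16 (glmQLFit, glmQLFTest, two-sided) in a model of group only. Benjamini-Hochberg adjustment ran over 20549 genes, and "rose" or "fell" means an adjusted p under 0.05. Fold changes are log2 values ± SE of the coefficient. RPKM is CPM per kilobase of the union of annotated exons (GENCODE M21), so unused exons lower it. The test was checked on simulated data. Libraries of a group differed by more than sampling noise (chi-square per gene 5.47 to 29.8).

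Per-library values are given for called members whose mean reaches 5 CPM, the top 3 per class in RPKM, and neighbouring pairs. Of each pathway list, up to 3 genes per direction by adjusted p are named, and further genes are marked as added. Of the marker lists, named genes also include defining or abundant markers chosen after their values were seen. The members and lists were chosen with earlier results of these data known, and the grouping of integrins by ligand was made after values were seen. Same-letter libraries deviated together from their group means, with correlations over genes of 0.275, 0.101 and 0.264 for A, B and C. Between libraries of unlike letters they ran from -0.298 (flox/flox C with -/- A) to 0.032 (flox/flox B with -/- A). The letter was therefore taken as a pairing found in the data, and values from a fit with it as a block are given where they change a call. That pairing was picked from these same counts, so calls gained only with the block are no separate support. DESeq2 1.42.0 was an alternative. Left out were 0 sample columns. Some single-gene values are not reported here, while counts over groups of genes include all genes tested.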

Additional observations from a re-analysis of the deposited data

How the results depend on the processing

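Of the 34 called members, all kept their direction in the alternatives that tested them, and 26 were called in each of those. The 26 include Col6a6 and Col8a2, which passed the low-count filter through libraries of 1 group alone. There were 13 alternatives, and the 1 CPM filter removed Col4a4 and Col6a6. With the letter as a replicate block, 1 integrin gene rose (Itga2b), Col4a5, Lamc1, Itga8 and Col22a1 also passed, and no other member's call changed. Leaving out 1 library in turn gave 2315 to 3510 for all genes that rose and 2342 to 3336 for all genes that fell. It gave 0 to 1 fibrillar collagen genes that rose, 4 to 6 basement membrane genes that fell, 0 to 2 basement membrane genes that rose and 0 to 1 integrin genes that rose. All changes of sign were in members that did not pass with all libraries. Among the members named here, with 1 library left out, the log2 difference ran from -0.04 to 0.37 for Col4a2, -0.66 to 0.33 for Col4a6 and -0.12 to 0.26 for Lama4. It ran from -0.13 to 0.17 for Agrn, -0.55 to 0.15 for Col1a1, -0.07 to 0.12 for Col27a1 and -0.56 to 0.06 for Col14a1. It ran from -0.26 to 0.10 for Col20a1, -0.29 to 0.16 for Col9a2, -0.25 to 0.88 for Col26a1 and -0.59 to 0.46 for Col6a2. With the chromosome 11 shift of 0.52 taken out, Itgb4 was at -0.17. The cause of these changes was not tested. DESeq2 size factors and the fit with no low-count filter changed no member's call. Members under 1 CPM rest on few reads, and small differences among them were not detectable at this depth.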
